A study of Mus musculus with 2 samples.

Results

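The genes described here encode subunits of the Polycomb repressive complexes PRC1 and PRC2. The 9 genes Pcgf2, Bmi1, Ring1, Rnf2, Ezh1, Ezh2, Eed, Suz12 and Cbx2 were looked up among the probes that the platform annotation gives a single gene symbol. Of these 9 genes, 7 had a probe, each exactly 1, out of 13709 genes measured on the array. No probe carried the symbol of Ezh2 or Rnf2, and these genes were not analysed here. The genes were chosen by their complex membership with their cortex and epithelium intensities known, so these intensities are given as a description and no test is attached to them.

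The series compares cortical fiber cells with epithelial cells of the mouse eye lens, with 1 array of poly(A) RNA for each. Lenses were taken from 5 mice aged 13 days and dissected into cortical fibers and the capsule with its adhering epithelium. No label states the strain, sex or genotype, whether the 5 mice were pooled, or any treatment of either sample. The values are background-subtracted intensities of a 1-colour array, in units of each array's median, which lay close to 1 (0.998 on both). Values under a floor of 0.5 of the array median were raised to it before log2 was taken. Differences are log2 cortex minus log2 epithelium. To count as higher in one sample, a gene had to be 3-fold or more brighter on that array and at or above its median. With 1 array a group there is no replicate and no p-value, and so few arrays limit how precise any value can be. The only spread the table holds is that between different probes of 1 gene, with a pooled SD of 1.10 in the log2 difference over 558 genes. That spread is between probes and not between mice, its source was not tested, and none of the 7 subunit genes had a second probe.

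Polycomb complexes keep developmental genes silent through histone modification. PRC2 methylates a lysine of histone H3 through the catalytic subunit EZH1 or EZH2, which needs EED and SUZ12 for activity. PRC1 ubiquitinates histone H2A through RING1 or RNF2, each paired with 1 PCGF protein, and its canonical forms carry a CBX protein that binds the methylated H3. EZH2 is the form of dividing cells and EZH1 is also found in cells that have left the cycle. Known targets of both complexes include the Hox clusters and the Cdkn2a locus.

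The sample labels were first set against markers. Of 11 fiber markers measured, 9 were higher in cortex and 0 were higher in epithelium. Their summed intensities were 14157 in cortex and 1620 in epithelium, so fiber transcripts were also bright on the epithelium array. Of 7 epithelial markers, 6 were higher in epithelium and 0 in cortex. Their sums were 4.87 in cortex and 406 in epithelium, and Foxe3, Cdh1 and Aqp1 were under the floor in cortex. Gja1, the marker not called, was also under the floor in cortex (0.442) and little above it in epithelium (0.569). Fetal liver is named in the longer description field of each sample. None of 10 liver and erythroid markers was called, and their intensities reached at most 1.39 in cortex and 1.79 in epithelium. Markers of the ciliary body and of pigment cells, which adjoin the lens, were higher in epithelium for 5 of 9 genes and in cortex for 1. Their sums were 13.5 in cortex and 147 in epithelium, of which Ptgds alone gave 7.54 and 123. When the floor was raised to the array median, Gpx3 (towards epithelium) and Dct (towards cortex) no longer passed. The 5 blood and immune markers had no call and sums of 2.14 in cortex and 1.04 in epithelium.

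Among the 7 subunit genes, Pcgf2 was higher in cortex, Eed and Ring1 were higher in epithelium, and Suz12, Ezh1, Bmi1 and Cbx2 did not pass 3-fold. Over all genes, 9.41% were higher in cortex and 8.17% were higher in epithelium, or 17.6% in either direction. The 3 calls were drawn from the contrast by which the genes were proposed, so nothing is read from their share. The median log2 difference of the 7 genes was 0.00, as was that of all 13709 genes. Cbx2, at the floor on both arrays, sets that median with a difference of 0. Over the 6 subunit genes that exceeded the floor in both samples the median was -0.37, against 0.03 over the 8351 such genes. The 2 samples are mixtures of cells, so fewer cells of a type and less RNA per cell cannot be told apart.

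**Figure D1:**
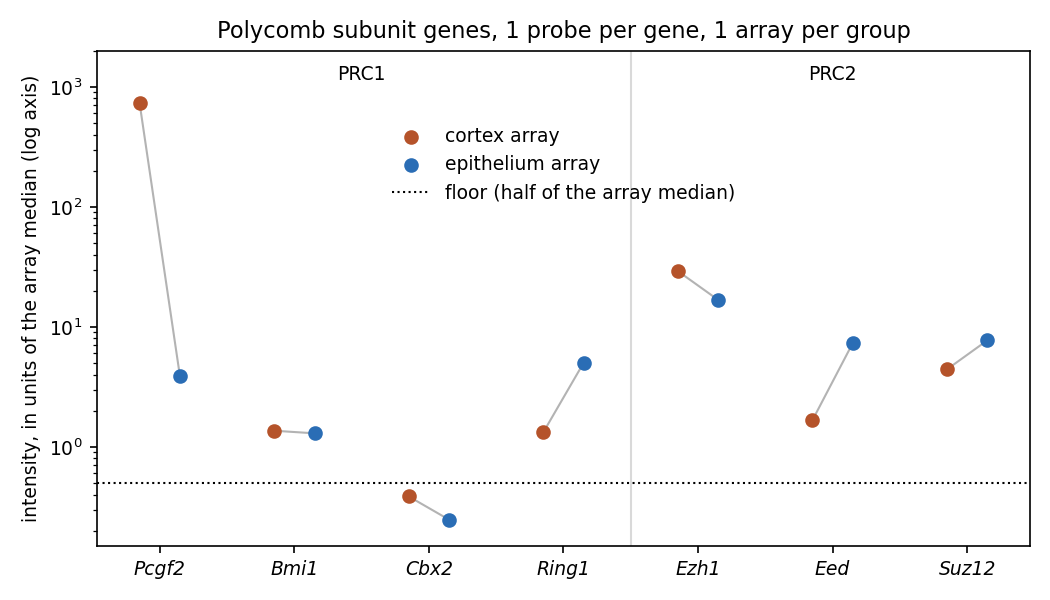
Intensity of the 7 measured Polycomb subunit genes on the cortex array and the epithelium array, in units of the array median on a log axis, with 1 point per gene and array and no error bar because there is no replicate. The dotted line is the floor at 0.5 of the array median. Pcgf2 stands at 731 in cortex and 3.87 in epithelium, Ring1 and Eed stand lower in cortex, and Cbx2 lies under the floor on both arrays.

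Pcgf2, also called Mel18, encodes a PCGF protein that pairs with the RING subunit of canonical PRC1. Its intensity was 731 in cortex and 3.87 in epithelium. Cortex was thus 189-fold brighter, a log2 difference of 7.56. No other of the 8351 genes that exceeded the floor in both samples had a larger difference in the direction of cortex. Only 1 probe, annotated to the RefSeq transcript of Pcgf2, carries this value, so no second probe can be set beside it.

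Bmi1 encodes the PCGF paralog that takes the same place in canonical PRC1. Its intensity was 1.36 in cortex and 1.30 in epithelium, a log2 difference of 0.07. The paralogs therefore differed in their contrast by 7.49 on the log2 scale (Pcgf2 minus Bmi1), a value in which any constant scaling of an array cancels. Bmi1 lay near the middle of all genes, with 50.2% dimmer in cortex and 47.6% in epithelium. Nearly all of the 7.49 thus comes from the single probe of Pcgf2. For the pairs Ezh1 and Ezh2, and Ring1 and Rnf2, only the first gene had a probe. Ring1 encodes one of the 2 E3 ligases of PRC1. It stood at 1.32 in cortex and 5.02 in epithelium, 3.80-fold brighter in epithelium, with a log2 difference of -1.93. Cbx2, which encodes a chromodomain reader of methylated H3, had 0.386 in cortex and 0.247 in epithelium. Both values lie under the floor, and no difference is given for it.

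The 3 PRC2 genes among the measured subunit genes were Eed, which passed 3-fold, and Suz12 and Ezh1, which did not. Eed encodes the subunit that binds trimethylated H3 and stimulates the enzyme. It stood at 1.66 in cortex and 7.33 in epithelium, 4.40-fold brighter in epithelium, with a log2 difference of -2.14. Suz12, a structural subunit needed for the stability of the complex, had 4.42 in cortex and 7.72 in epithelium. Its log2 difference of -0.80 (1.75-fold) is under the limit. In size it is smaller than the pooled SD between probes (1.10) and larger than the median SD (0.59). Ezh1, the catalytic subunit, had 29.1 in cortex and 16.7 in epithelium, 1.74-fold brighter in cortex. That log2 difference of 0.80 likewise lies between the median and the pooled SD. It is about the same in size as that of Suz12 with the opposite sign. Absolute differences larger than those of Ezh1 and Suz12 were seen in 52.0% and 51.7% of the 8351 genes measured in both samples. For Eed and Ring1 these shares were 13.4% and 16.5%. The pooled SD between probes (1.10) also has to be held beside the differences of Eed (-2.14) and Ring1 (-1.93), each from 1 probe.

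**Figure D2:**
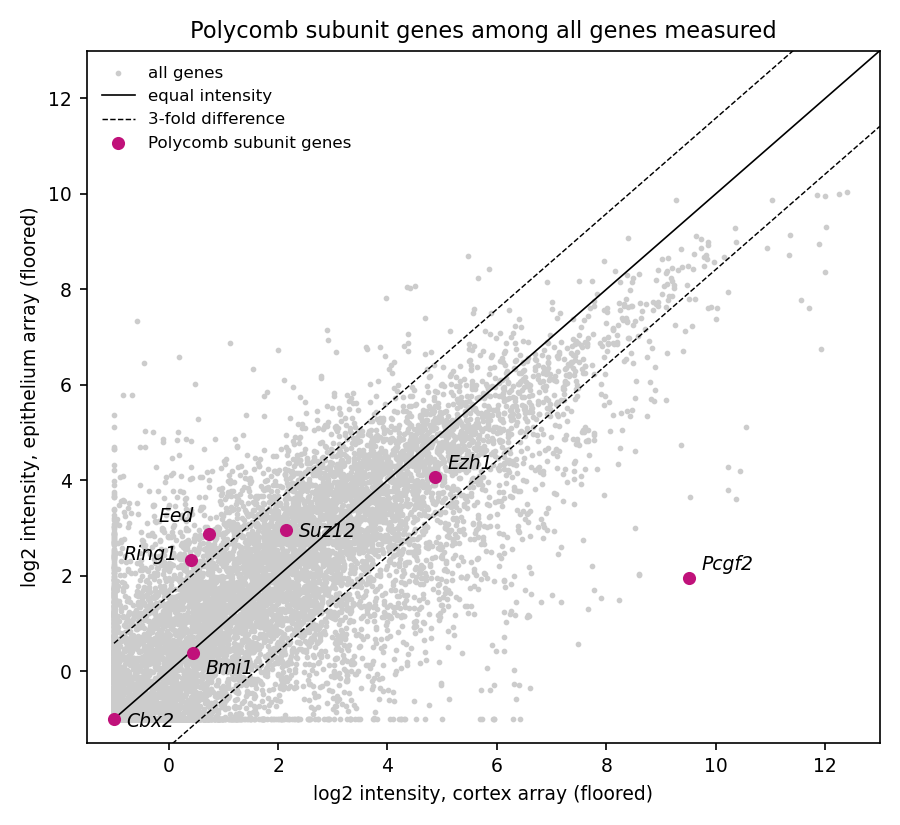
Log2 intensity of 13709 genes after flooring, with the cortex array on the horizontal axis and the epithelium array on the vertical axis, the Polycomb subunit genes in colour, a solid line of equal intensity and dashed lines at a 3-fold difference. Pcgf2 lies right of the lower dashed line, at an unlogged 731 in cortex and 3.87 in epithelium, Eed and Ring1 lie just above the upper dashed line, and Ezh1, Suz12 and Bmi1 lie between the dashed lines.

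Many genes of dividing cells were higher in epithelium, as Eed and Ring1 were. Of 25 S phase and mitosis genes measured, 15 (60.0%) were higher in epithelium and 0 in cortex, against 8.17% and 9.41% of all genes. The other 10 were not called. Among the last, Cdc20 (7.70 in cortex, 2.76 in epithelium) and Kif11 (5.15 in cortex, 1.85 in epithelium), named after their values were seen, were brighter in cortex. After loess, or with a 2-fold limit, 2 genes of this list were higher in cortex, against 9.21% and 16.4% of all genes. The sums of the 25 genes were 36.8 in cortex and 179 in epithelium. Mki67, the proliferation antigen, stood at 0.542 in cortex and 16.8 in epithelium, and Pcna, the sliding clamp of DNA polymerase, at 10.8 in cortex and 49.0 in epithelium. The part of dividing cells, and of the ciliary and pigment cells above, in the differences of Eed and Ring1 was not tested. The E2F and Rb genes, which control entry into S phase and through which Ezh2 and Eed are known to be regulated, had no call among 8 measured with the deposited scaling. With centring on ribosomal protein genes, or with a 2-fold limit, 2 of them were higher in epithelium, and with no floor 1 was. The shares of all genes higher in epithelium were 20.5%, 15.3% and 8.80% in these settings. The median log2 difference of the 8 E2F and Rb genes was 0.14 with the deposited scaling. The largest absolute differences were those of Tfdp2 (0.462 in cortex, 1.43 in epithelium) and Rbl2 (0.467 in cortex, 1.01 in epithelium). Both were under the floor in cortex.

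Promoters of the 3 called genes are shown because these genes differ in direction while encoding parts of the same machinery. That of Suz12, which was not called, is shown beside them. The windows run from 250 bases before to 50 bases after the RefSeq start of each gene, on the gene's strand, in build GRCm38.p6. They are RefSeq sequences, found for 8 of the 9 genes, and each is the window of a single annotated start. Pcgf2 lies at chr11:97699599-97699898 on the minus strand, Eed at chr7:89980927-89981226 on the minus strand, Suz12 at chr11:79992856-79993155 on the plus strand and Ring1 at chr17:34024631-34024930 on the minus strand. Capitals mark matches, on either strand, to any of 5 motifs chosen after the values were seen.
Pcgf2: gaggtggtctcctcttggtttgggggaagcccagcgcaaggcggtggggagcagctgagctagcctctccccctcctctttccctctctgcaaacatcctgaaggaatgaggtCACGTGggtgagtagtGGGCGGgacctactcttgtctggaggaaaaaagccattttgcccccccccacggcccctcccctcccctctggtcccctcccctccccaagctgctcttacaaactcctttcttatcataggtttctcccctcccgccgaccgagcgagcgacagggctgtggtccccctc
Eed: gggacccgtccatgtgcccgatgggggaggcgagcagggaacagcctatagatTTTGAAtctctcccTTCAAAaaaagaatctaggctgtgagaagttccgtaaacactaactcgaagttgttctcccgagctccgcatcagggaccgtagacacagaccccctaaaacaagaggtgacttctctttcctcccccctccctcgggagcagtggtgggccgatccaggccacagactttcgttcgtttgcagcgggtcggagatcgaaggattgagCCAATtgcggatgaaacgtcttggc
Suz12: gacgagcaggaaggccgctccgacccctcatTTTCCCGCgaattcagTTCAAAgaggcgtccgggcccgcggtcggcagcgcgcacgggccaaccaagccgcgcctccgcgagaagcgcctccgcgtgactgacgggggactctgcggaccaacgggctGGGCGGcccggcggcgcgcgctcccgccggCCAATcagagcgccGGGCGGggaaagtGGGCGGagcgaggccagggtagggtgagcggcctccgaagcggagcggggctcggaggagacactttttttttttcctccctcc
Ring1: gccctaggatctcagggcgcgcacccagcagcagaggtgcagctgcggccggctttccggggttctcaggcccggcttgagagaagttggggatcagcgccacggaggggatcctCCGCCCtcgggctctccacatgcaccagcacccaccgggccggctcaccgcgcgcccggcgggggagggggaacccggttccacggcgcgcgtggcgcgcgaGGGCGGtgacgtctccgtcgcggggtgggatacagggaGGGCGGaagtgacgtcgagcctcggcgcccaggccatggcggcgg

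The motifs were the E2F site (TTTCCCGC, TTTGGCGC, TTTCGCGC or TTTGCCGC), the cell cycle homology region (TTTGAA), the CCAAT box (CCAAT), the GC box (GGGCGG) and the E-box (CACGTG). None of the spelled motifs is contained in another. The Suz12 window held 1 E2F match, 1 TTTGAA match, 1 CCAAT and 3 GC boxes. The Eed window held 2 TTTGAA matches and 1 CCAAT, and no E2F match or GC box. The Pcgf2 window held 1 GC box and 1 E-box, and the Ring1 window 3 GC boxes. Among windows not shown, that of Bmi1 also held 1 E-box, with 6 GC boxes. That of Rnf2 held 2 GC boxes, and that of Ezh1 held no match to any motif. Of 32851 promoter windows of the same length, 2.26% held an E2F match, 17.9% TTTGAA, 37.4% CCAAT, 35.7% a GC box and 7.15% an E-box. The window of Ezh2, which has no probe, held 1 E2F match and 3 CCAAT. The windows also differed in CpG dinucleotides, with 10 in Pcgf2, 17 in Eed, 37 in Ring1 and 41 in Suz12, against a median of 7 over all windows. A match describes letters only and was not set against binding.

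Scaling moved the differences but no direction of a called gene. The log2 difference of Pcgf2 lay between 6.62 and 7.56 over the deposited scaling, quantile normalization, loess on brightness and centring on ribosomal protein genes. That of Eed lay between -3.08 and -2.00, and that of Ring1 between -2.87 and -1.76, under the same scalings. Centring on ribosomal protein genes subtracts 0.95 from each difference of a gene above the floor. With it, Ezh1 turned to -0.15 and Bmi1 to -0.87, while Suz12 reached -1.75 and passed 3-fold in the direction of epithelium. Ezh1 and Bmi1 therefore have no settled direction. Relative to the median of the 8351 genes measured in both samples, which the same centring moved to -0.91, Ezh1 and Bmi1 kept their place by construction.

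**Figure D3:**
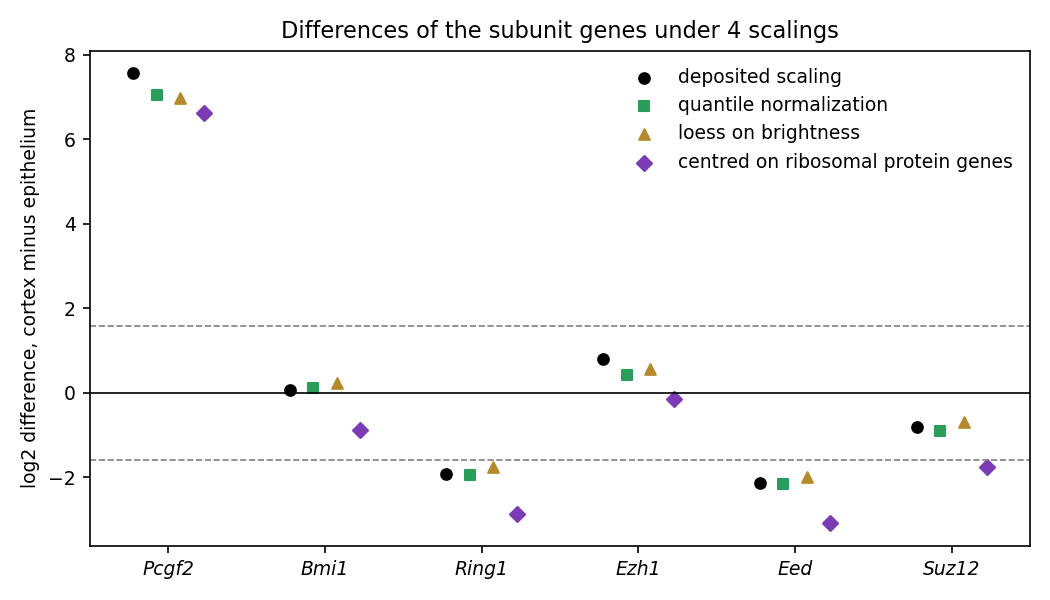
Log2 difference, cortex minus epithelium, of the 6 Polycomb subunit genes above the floor on both arrays under 4 scalings, with 1 point per scaling and dashed lines at a 3-fold difference. Pcgf2 stays at 6.62 or higher and Eed and Ring1 stay below the lower dashed line in all 4, while Ezh1 and Bmi1 cross 0 after centring on ribosomal protein genes.

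Of 15 other PRC1 genes measured among 21 listed, 3 (20.0%) were higher in epithelium, none in cortex and 12 were not called, against 8.17% and 9.41% of all genes. Their median log2 difference was -0.45, against 0.03 over all genes measured in both samples, and 11 of 15 were below 0. Bcor, a corepressor of the variant complex PRC1.1, had 1.06 in cortex and 8.08 in epithelium, 7.65-fold brighter in epithelium. Kdm2b, which recruits that complex to CpG islands, had 0.569 in cortex and 1.97 in epithelium. Its 3.47-fold difference shrank to a bound of 1.97-fold when the floor was raised to the array median, and it no longer passed. Phc1, a polyhomeotic subunit of canonical PRC1, had 3.05 in cortex and 12.3 in epithelium, 4.03-fold brighter in epithelium. Some genes under the limit are named here after their values were seen. Rybp, which replaces CBX proteins in variant complexes, had 7.61 in cortex and 3.32 in epithelium, and its second probe 1.27 in cortex and 0.963 in epithelium. Cbx6 had 8.51 in cortex and 4.55 in epithelium, and Phc2 had 6.69 in cortex and 8.97 in epithelium.

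Another 7 measured PRC2 genes are grouped here as accessory, with Rbbp4 and Rbbp7 among them. Of these 7, 1 (14.3%) was higher in cortex and 0 in epithelium, against 9.41% and 8.17% of all genes. The list median was 0.29, against 0.03 over all genes measured in both samples. Rbbp4, a histone chaperone shared by PRC2 and other chromatin complexes, had 239 in cortex and 64.5 in epithelium, 3.70-fold brighter in cortex. It was under 3-fold after quantile normalization, loess or centring on ribosomal protein genes. Its relative Rbbp7, also named after its value was seen, had 28.2 in cortex and 42.9 in epithelium. None of Phf19, Mtf2 and Phf1, related recruiting subunits named in the same way, passed 3-fold. Phf19 had 12.2 in cortex and 4.76 in epithelium. Mtf2 had 0.546 in cortex and 1.29 in epithelium, and Phf1 was under the floor in cortex at 0.410 and had 1.05 in epithelium. Jarid2, which helps PRC2 onto chromatin, had 1.11 in cortex and was under the floor in epithelium at 0.180, so cortex was at least 2.23-fold brighter.

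None of the measured enzymes that remove Polycomb marks passed 3-fold with the deposited scaling, and 1, Kdm6a, was over it in the direction of epithelium after centring on ribosomal protein genes. Kdm6a and Kdm6b remove those methyl groups from H3 again. Kdm6a had 1.71 in cortex and 3.16 in epithelium, Kdm6b had 4.29 in cortex and 4.76 in epithelium. Of 4 measured genes linked to H2A deubiquitination none was called, with Usp16 at 12.5 in cortex and 10.5 in epithelium and Bap1 at 1.16 in cortex and 1.21 in epithelium. A second, dimmer probe of Usp16 had the opposite sign (0.621 in cortex, 0.786 in epithelium). Of 8 trithorax group genes, which maintain active transcription, 2 (25.0%) were higher in epithelium and 0 in cortex. Over all genes these shares were 8.17% and 9.41%. The trithorax median was -0.53, against 0.03 over all genes measured in both samples. Wdr5 had 0.632 in cortex and 2.63 in epithelium, and Kmt2b had 0.504 in cortex and 1.60 in epithelium. Neither passed when the floor was raised to the array median.

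The Hox genes, known targets of Polycomb, were higher in cortex where they were called. Of 32 Hox genes measured, 8 (25.0%) were higher in cortex and none in epithelium, against 9.41% and 8.17% of all genes. Another 13 were at the floor on both arrays, and the list median was 0.07. Hoxd1 had 178 in cortex and 1.48 in epithelium, 120-fold brighter in cortex. Hoxc4 had 26.3 in cortex and 2.71 in epithelium, and Hoxc13 had 168 in cortex and 29.0 in epithelium. Hoxd13 (3.80 in cortex), Hoxc5 (2.25 in cortex) and Hoxc6 (1.80 in cortex) were under the floor in epithelium, with cortex at least 7.61-fold, 4.51-fold and 3.60-fold brighter. A second probe of Hoxd13 was under the floor on both arrays. The other 2 called genes were each about 3.59-fold to 3.60-fold brighter in cortex. The dim end of the cortex array was itself brighter, with a lower quartile over all probes of 0.367 in cortex and 0.217 in epithelium, and its part in the Hox values was not tested. With the higher floor 6 Hox genes passed, without Hoxc5 and Hoxc6, and 4 passed after centring on ribosomal protein genes. In these settings 8.07% and 4.10% of all genes were higher in cortex.

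Cdkn2a, which encodes the cell cycle inhibitor INK4A and ARF and is a target named for Bmi1 and Pcgf2, had 6.63 in cortex and 0.594 in epithelium. Cortex was 11.2-fold brighter, with a bound of 6.65-fold when the floor was raised to the array median. Its relative Cdkn2c had 2.66 in cortex and 2.59 in epithelium. These were the 2 genes of the INK4 family with a probe.

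**Figure D4:**
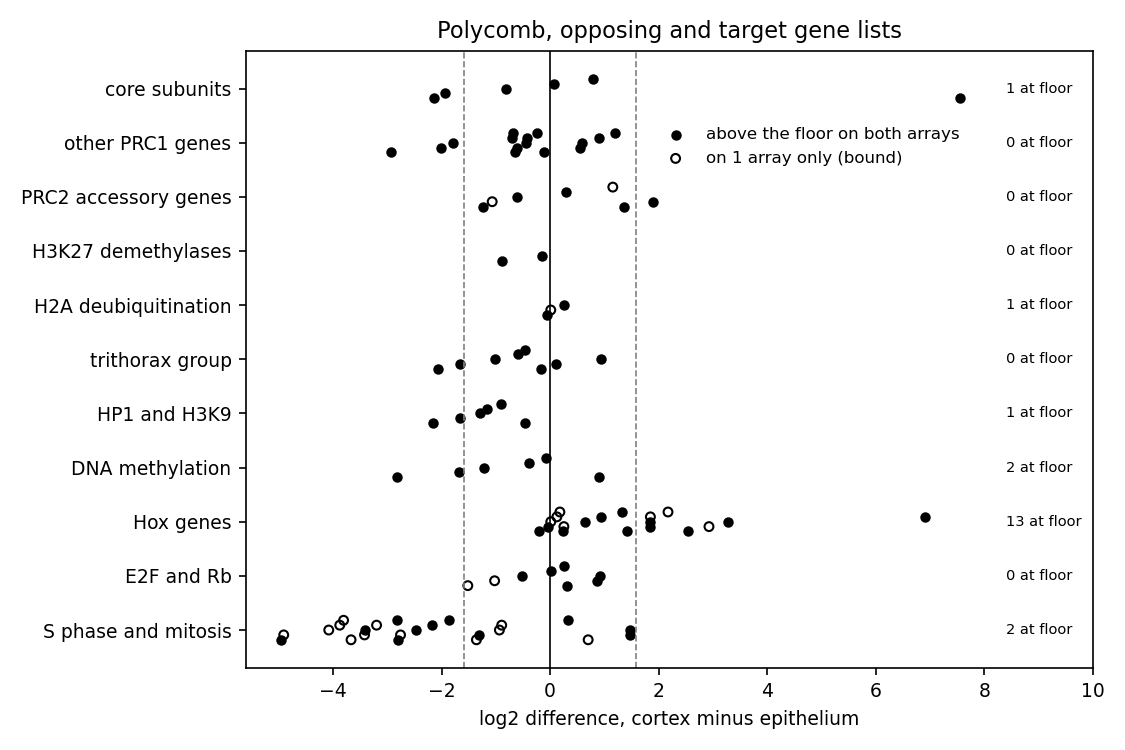
Log2 difference, cortex minus epithelium, of each gene in 11 lists, with filled points for genes above the floor on both arrays, open points for bounds from genes above it on 1 array, dashed lines at a 3-fold difference and, at the right, the number of genes at the floor on both arrays. The subunit genes described here, labelled core subunits, spread from -2.14 to 7.56. The called Hox genes lie right of the upper dashed line, and most S phase and mitosis genes lie left of the lower one.

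The genes closest in pattern to the 2 subunit genes with the largest differences were found by the Euclidean distance of the 2 log2 values, over only 2 arrays. For Pcgf2 they were Ccdc33 (389 in cortex, 4.03 in epithelium, distance 0.91) and Cntnap1 (386 in cortex, 4.08 in epithelium, distance 0.92). For Eed they were Rgs2 (1.70 in cortex, 7.31 in epithelium, distance 0.03) and Ppp1r3f (1.66 in cortex, 7.11 in epithelium, distance 0.04). No gene that exceeded the floor in both samples lay closer to Pcgf2 than 0.91.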

How the data were processed

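Poly(A) RNA of 2 lens samples was profiled on 1-colour CodeLink mouse bioarrays read with the CodeLink software, per the labels. The deposited intensities cover 19819 probes on each array. The sources used here do not state how the authors scaled them or subtracted background. The deposited intensities are linear, with some values under 0 and a maximum of 5411, and their medians lie close to 1. The 100 probes that lack a value on either array were left out. Gene names came from the platform annotation. It gives 15120 probes 1 symbol, 38 several and 4661 none, and 15064 matched RefSeq genes of GRCm38.p6 by Entrez identifier.

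The deposited scaling was kept, values were floored at 0.5 of each array's median, and log2 was taken. Of several probes of a gene, the brightest by mean log2 value was kept. Where both values were floored, the difference was taken as 0. A gene above the floor on 1 array has a bound only. With 1 array a group no test was possible. The size rule was run on simulated arrays with known changes as a check of the code. Its error rate on these data was not measured.

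The genes and lists were chosen with earlier results of these data known. All subunit genes were named. A rule covered the Polycomb, trithorax, H3K9, DNA methylation, Hox, INK4 and E2F lists. It named their genes past 3-fold (up to 6 by absolute difference) or else the 2 with the largest difference. Others were marked as chosen after their values were seen. Mki67, Pcna, Jarid2, Dnmt1, Cdkn2c and the cell type markers were named outside this rule. The alternatives were quantile normalization, loess (span 0.3), centring on 62 ribosomal protein genes, averaging the probes of a gene, removing the floor or raising it to the median, limits of 2-fold and 5-fold, and no condition on the brighter array. Python 3.11.15, numpy 2.4.6, pandas 2.3.3, statsmodels 0.14.6 and matplotlib 3.10.9 were used.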

Additional observations from a re-analysis of the deposited data

How the results depend on the processing

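The call of Pcgf2 held under every alternative tried, and those of Eed and Ring1 under all but the 5-fold limit, where 0 subunit genes were higher in epithelium. Pcgf2 minus Bmi1 was 6.75 after loess. Centring on ribosomal protein genes gave a median of -0.91 over the genes measured in both samples, against 0.03 with the deposited scaling, and a cortex share of all calls of 16.7%, against 53.5%. With it the median of all measured subunit genes, Cbx2 counted as 0, was -0.87, against -0.42 over all 13709 genes. The medians over all measured genes of a list were -1.40 for other PRC1 genes and -0.66 for PRC2 accessory genes. They were -1.47 for trithorax genes and -2.11 for HP1 and H3K9 genes. The counts higher in epithelium were then 6, 2, 3 and 5 in that order, no PRC2 accessory gene (0) was higher in cortex, and 4 Hox genes were. Of all genes, 20.5% were then higher in epithelium and 4.10% in cortex. Quantile normalization and loess each left 0 PRC2 accessory genes higher in cortex. Quantile normalization moved the median of the genes measured in both samples to -0.11. With no floor, 2 PRC2 accessory genes were higher in cortex and the Hox median was 1.84. Of all genes 10.4% were then higher in cortex, and their median was 0.29. With the floor at the median, 0 trithorax genes were higher in epithelium, against 6.40% of all genes. At 2-fold, 1 other PRC1 gene and 3 PRC2 accessory genes were higher in cortex, and 2 PRC2 accessory and 4 HP1 and H3K9 genes in epithelium. That limit called 16.4% of all genes towards cortex and 15.3% towards epithelium. At 5-fold, 1 other PRC1 gene, 0 trithorax and 0 HP1 and H3K9 genes were higher in epithelium, and 0 PRC2 accessory and 4 Hox genes in cortex. Of all genes, 5.09% passed 5-fold towards cortex and 3.48% towards epithelium. The lower counts at 5-fold and higher ones at 2-fold follow from the limit itself. The shifts with the centring follow from the constant 0.95 that it subtracts from each difference of a gene above the floor. For the other settings the cause was not tested. Of the values for single genes and smaller lists, 21 moved and 165 did not. With the centring, 1 H3 demethylase gene and 2 E2F and Rb genes were higher in epithelium. Raising the floor to the median left 1 DNA methylation gene called towards epithelium. The other 124 values for the subunit counts and median, the paralog pair and the 5 lists above stayed within 1.5 times a count or within the median SD between probes (0.59). No paired analysis was possible because each group holds 1 array. A single array a group, and a single probe for each subunit gene, limit every value.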

Other observations

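Other silencing systems were examined in the same way. Of 7 measured genes of heterochromatin protein 1 and of H3 lysine 9 methylation, 2 (28.6%) were called higher in epithelium and 0 in cortex, against 8.17% and 9.41% of all genes, and the median log2 difference was -1.16. All 6 of them above the floor on both arrays had a difference below 0 with the deposited scaling. Cbx1, a heterochromatin protein that shares the chromodomain of Cbx2, had 1.15 in cortex and 5.14 in epithelium, 4.46-fold brighter in epithelium. The methyltransferase gene Ehmt1 had 7.03 in cortex and 22.3 in epithelium. The 2 probes of its partner Ehmt2, named after their values were seen, had 4.30 and 3.66 in cortex against 9.63 and 7.78 in epithelium, log2 differences of -1.16 and -1.09.

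Of 8 measured genes of DNA methylation, 2 (25.0%) were higher in epithelium and 0 in cortex, against the same shares of all genes. S phase and mitosis genes (15 of 25) and ciliary body and pigment cell markers (5 of 9) were higher in epithelium too, and their part in these values was not tested. Uhrf1, which brings the maintenance methyltransferase to replicated DNA, had 0.988 in cortex and 6.98 in epithelium. Dnmt3b, a de novo methyltransferase, had 0.548 in cortex and 1.75 in epithelium and no longer passed when the floor was raised to the array median. The maintenance enzyme gene Dnmt1 was under the floor on both arrays, at 0.366 in cortex and 0.229 in epithelium.

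The genes beside Pcgf2 on its chromosome were examined after its value was seen. Of the 3 nearest protein-coding genes on each side, 4 had a probe. Mllt6 had 85.3 in cortex and 13.8 in epithelium, a log2 difference of 2.63. Psmb3 had 64.9 in cortex and 42.4 in epithelium, Cwc25 had 0.781 in cortex and 0.557 in epithelium, and Pip4k2b was under the floor on both arrays.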
